A study of Drosophila melanogaster with 15 samples.

Results

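CG14395, dsx-c73A (listed in the files as CG32159), CG16798, CG4702 and CG31559 are 5 genes of the Drosophila epidermis that were already classed as targets of the transcription factor Shavenbaby (Svb) when these arrays were made, and that belong neither to the zona pellucida (ZP) domain proteins of the apical matrix nor to the regulators of actin. They were chosen by name, as the targets whose role in the cell is less clear, out of 16 known Svb targets in the study's table of 149 selected rows. Each gene was read by 1 probe set, among 18769 probe sets on the array that are not controls.

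The arrays measured RNA of whole Drosophila melanogaster embryos aged 13 to 15 h after egg laying, from parents that laid for 2 h at 25 °C, the embryos then being kept at 18 °C. The 3 genotypes were wild type (wt), svb -/- (allele svbR9) and pri -/- (allele pri1), with 5 samples of 200 hand-picked embryos for each and 1 Affymetrix array per sample. The mutant stocks were kept over balancer chromosomes carrying GFP, and mutant embryos were picked by its absence. The sex of the embryos is not given. As svb is on the X chromosome, the sex ratio may differ between the genotypes, and its part in the results was not tested. The strain of the wt flies is not stated, and the probe sets of svb and pri themselves are not named in the files, so that the genotypes could not be checked on the mutated genes.

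The larval cuticle carries small actin-based outgrowths called trichomes, and Svb is the factor that turns on the genes needed to build them. Svb is made as a repressor. Its activator form requires the short peptides made from pri, without which the protein is not processed. Little is known of the 5 genes: CG14395 encodes a protein with a pleckstrin homology-like domain, dsx-c73A has been annotated with cuticle formation, CG31559 encodes a cysteine-rich protein with a glutaredoxin-like domain, and CG16798 and CG4702 have no known function. All 5 are transcribed in stripes of epidermal cells, CG4702 also in the gut and CG31559 also in the foregut. In RNA of whole embryos, fewer expressing cells and less RNA per cell cannot be told apart.

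The values are linear signals, scaled by the authors to the same trimmed mean on every array, and have no unit. The signal of CG14395 in wt embryos was 105, 109.9, 135, 158 and 120 in replicates 1 to 5, with a mean of 125 ± 21.5 (SD, n = 5). In svb mutants it was 45.3, 33.4, 45.5, 56.6 and 77.5, with a mean of 51.7 ± 16.6 (SD, n = 5). In pri mutants it was 2.55, 2.41, 5.53, 5.23 and 3.39, with a mean of 3.82 ± 1.47 (SD, n = 5). The 3 genotypes thus formed 3 separate ranges for this gene, the brightest svb array staying below the dimmest wt array, and every pri array lay far under 32, the signal used here as the lower limit for testing a probe set.

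The signal of dsx-c73A was 925, 1194, 1149, 824 and 989.8 in the 5 wt samples, a mean of 1016 ± 154 (SD, n = 5). The svb mutants gave 548, 504, 395, 453 and 648, a mean of 509.6 ± 95.9 (SD, n = 5). The pri mutants gave 129.5, 137, 109.5, 149 and 113, a mean of 128 ± 16.7 (SD, n = 5). As with CG14395, wt, svb and pri embryos did not overlap at any point. The svb replicate 5 had the highest signal among the svb arrays for both genes.

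For CG16798 the wt samples gave signals of 205, 275, 359, 196 and 245, a mean of 256 ± 65.9 (SD, n = 5). Its signals in svb mutants were 134, 90.6, 150.4, 147 and 209.7, a mean of 146 ± 42.7 (SD, n = 5). Its signals in pri mutants were 42.1, 53.3, 40.4, 51.0 and 49.2, a mean of 47.2 ± 5.66 (SD, n = 5). Here svb replicate 5 lay above wt replicates 1 and 4, whereas the other 4 svb arrays were below every wt array. All pri arrays were below all others.

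CG4702 gave wt signals of 2358, 2615, 2857, 2272 and 2152, a mean of 2451 ± 284 (SD, n = 5). Among svb mutants it gave 1843, 2186, 2596, 2635 and 2316, a mean of 2315 ± 324 (SD, n = 5). Among pri mutants it gave 349.8, 438, 476, 411 and 399, a mean of 415 ± 46.9 (SD, n = 5). Of the svb samples only replicate 1 was below all wt samples, and the other 4 lay within the wt range, whereas the pri range was separate and low.

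The same form was seen for CG31559, whose wt signals were 738, 1039, 962, 818 and 845, with a mean of 881 ± 120 (SD, n = 5). Its svb signals were 787, 817, 608, 950.0 and 1012, with a mean of 835 ± 157 (SD, n = 5). Its pri signals were 94.2, 114, 149, 132 and 139, with a mean of 126 ± 21.8 (SD, n = 5). Only svb replicate 3 fell below all wt samples, and svb replicate 5 was again the highest of its group.

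**Figure D1:**
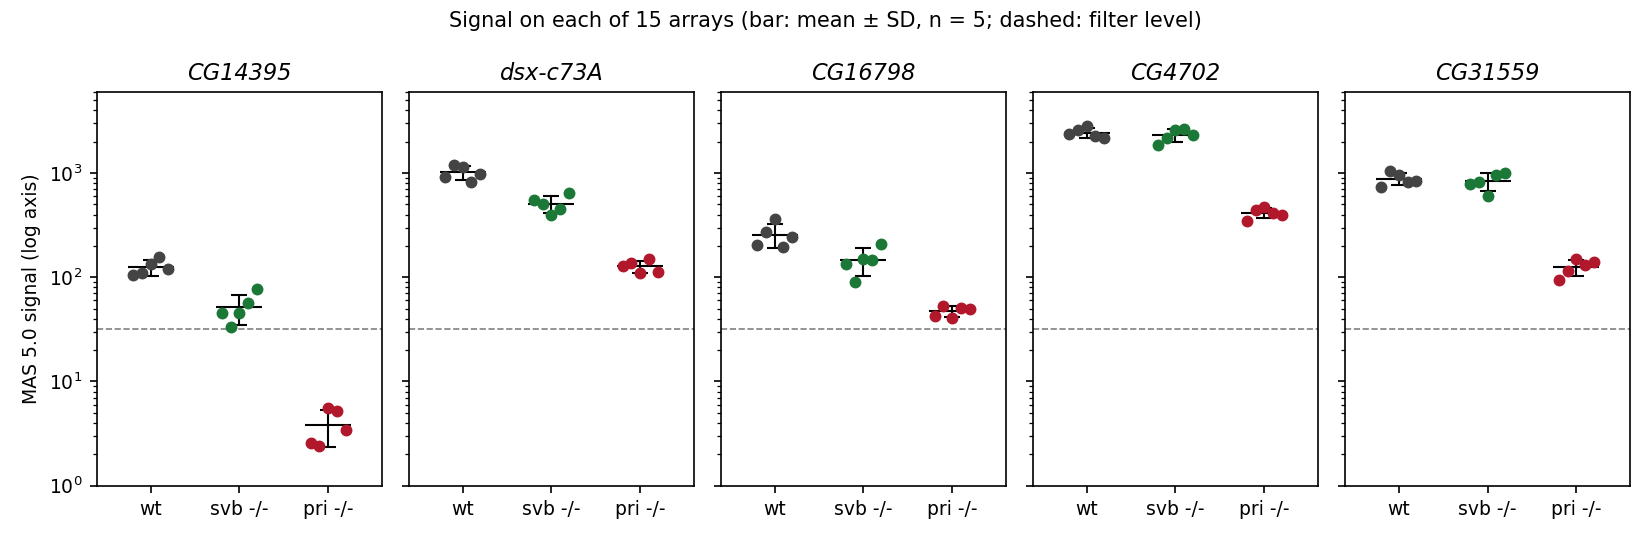
MAS 5.0 signal (log axis) of each gene on each of 15 arrays, by genotype, with replicates 1 to 5 from left to right and bars for the mean ± SD (n = 5); the dashed line marks a signal of 32. CG14395, dsx-c73A and CG16798 step down from wt to svb and again to pri, whereas the svb samples of CG4702 and CG31559 lie among the wt samples and the pri samples of all 5 genes lie below.

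How far each gene depended on svb was asked by comparing svb mutants with wt embryos. The genes were read from a single linear model (limma) fitted to 8631 probe sets, all 5 genes among them, of which 4.00% were called lower in svb mutants (adjusted p under 0.05). Of the 5 genes 3 were called lower and 2 had no overlap between the groups, as had 4.06% of the tested probe sets. The table that lists them was itself selected on these arrays, for genes down in both mutants and further down in pri, so that the direction of the 5 genes was fixed by that choice. CG14395 was 2.50-fold lower in svb mutants, with a log2 fold change of -1.32 ± 0.27 (SE) and an adjusted p of 0.00632 by limma. For dsx-c73A the fall was 2.00-fold, which left 49.9% of the wt level (95% interval 39.9 to 62.5%), with a limma adjusted p of 0.000599. The fall of CG16798 was 1.77-fold, a log2 fold change of -0.82 ± 0.21 (SE), with a limma adjusted p of 0.0239.

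This last call was the least firm. It was lost when wt replicate 2 (limma adjusted p = 0.0644), wt replicate 3 (0.0623) or svb replicate 2 (0.0598) was left out, when only the arrays of both compared genotypes were fitted (0.0726) and after median centring (0.163). The direction held in each of these fits, and svb replicate 2 was the dimmest svb array for CG16798.

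CG4702 and CG31559 did not pass the test in svb mutants. The study lists both as svb-dependent in the epidermis by in situ hybridization, whereas these arrays read RNA of whole embryos. CG4702 had a log2 fold change of -0.09 (95% interval -0.35 to 0.18) and a limma adjusted p of 0.800, which left 94.2% of the wt level with an interval of 78.5 to 113%. CG31559 had -0.09 (95% interval -0.43 to 0.26) and a limma adjusted p of 0.855, which left 94.1% with an interval of 74.1 to 119%. Moderate falls are thus within the error of both genes. The sign was not settled either, as both intervals span falls and rises, and CG31559 was at 0.021 without svb replicate 3. Median centring put CG4702 at 0.018 and CG31559 at 0.016, but it moved the median of all tested probe sets to 0.10. Relative to that median both genes stayed at -0.08.

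In pri mutants all 5 genes were lower than in wt embryos, with no overlap between the groups. This count stands beside 23.1% of the tested probe sets called lower and 14.2% lower with no overlap. Its direction, and largely the calls as well, were set by how the table was chosen. The fall in signal was 7.94-fold for dsx-c73A (limma adjusted p = 7.61e-10) and 7.04-fold for CG31559 (3.53e-09). It was 5.91-fold for CG4702 (4.20e-10) and 5.32-fold for CG16798 (3.34e-07). CG14395 was at least 3.88-fold lower in pri than in wt, a bound taken against the signal of 32 because its measured values lay under it. The limma adjusted p of 1.22e-09 belongs to the change fitted on those measured values.

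The pri mutants were also compared with svb mutants, a contrast in which effects of pri through Svb and any other effects of pri cannot be told apart. Again all 5 genes were lower in pri, without overlap, beside 24.7% of the tested probe sets called lower and 13.8% lower with no overlap. The table was selected on these same arrays for a further fall in pri, so that direction and calls were largely fixed by that choice. Among the 4 genes with signals above 32 in both mutants, the falls from svb to pri were largest for CG31559, 6.62-fold (limma adjusted p = 4.63e-09), and CG4702, 5.56-fold (7.20e-10). These are the genes whose levels in svb mutants did not differ from wt beyond the error. As the svb arrays enter both comparisons, this is not a separate result. The fall was 3.96-fold for dsx-c73A (limma adjusted p = 7.75e-08) and 3.01-fold for CG16798 (1.84e-05). CG14395 was at least 1.55-fold lower, which leaves its place among the 5 unknown. Its limma adjusted p of 4.11e-08 belongs to the change fitted on the measured signals, not to this bound.

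Put against the 11 other known Svb targets of the table, the 5 genes spanned almost the whole order of response to svb. The median log2 fold change in svb mutants was -0.82 for the 5 genes, -0.76 for the other targets, of which 5 of 11 were called lower, and -0.01 over all tested probe sets. Ranked by the share of the wt level that remained, CG14395 stood 2 of 16, after sha, which is needed for trichome growth, and dsx-c73A stood 4, just after the ZP gene m. CG16798 came at 8, next to the ZP gene mey above it and mwh, a regulator of actin, below it. CG31559 and CG4702 closed the list at 15 and 16, after PH4alphaEFB, which encodes a prolyl hydroxylase. The intervals of neighbours in this order overlapped throughout the list, so that single places, at its top as at its end, are not resolved.

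In pri mutants the order was another one. CG4702 and CG31559 were then no longer last: by the share that remained, CG31559 ranked 7 of 16 and CG4702 ranked 10, between the ZP genes dyl and neo, whereas CG16798 ranked 12. dsx-c73A ranked 5, and CG14395 had the lowest remaining share if its signals under 32 are taken as measured. From dsx-c73A to the end of this order the intervals of neighbours overlapped as well, so that these single places are not resolved. The intervals of CG31559 and CG4702 overlapped with those of tyn, mwh and f near its end, but not with that of PH4alphaEFB, the last gene. The median log2 fold change in pri was -2.82 for the 5 genes, -2.67 for the other targets, all 11 of which were called lower, and -0.04 over all tested probe sets. From svb to pri it was -2.48 for the 5 genes, -1.83 for the other 11, all called lower, and -0.03 over all tested probe sets. The medians of the 5 genes take the signals of CG14395 under 32 as measured. With its bounds in their place, the middle gene would be CG4702 at -2.56 in pri and dsx-c73A at -1.99 from svb to pri. The order of both lists in pri is therefore not settled. The other 11 come from the same table, so that their calls were largely fixed by its selection too.

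**Figure D2:**
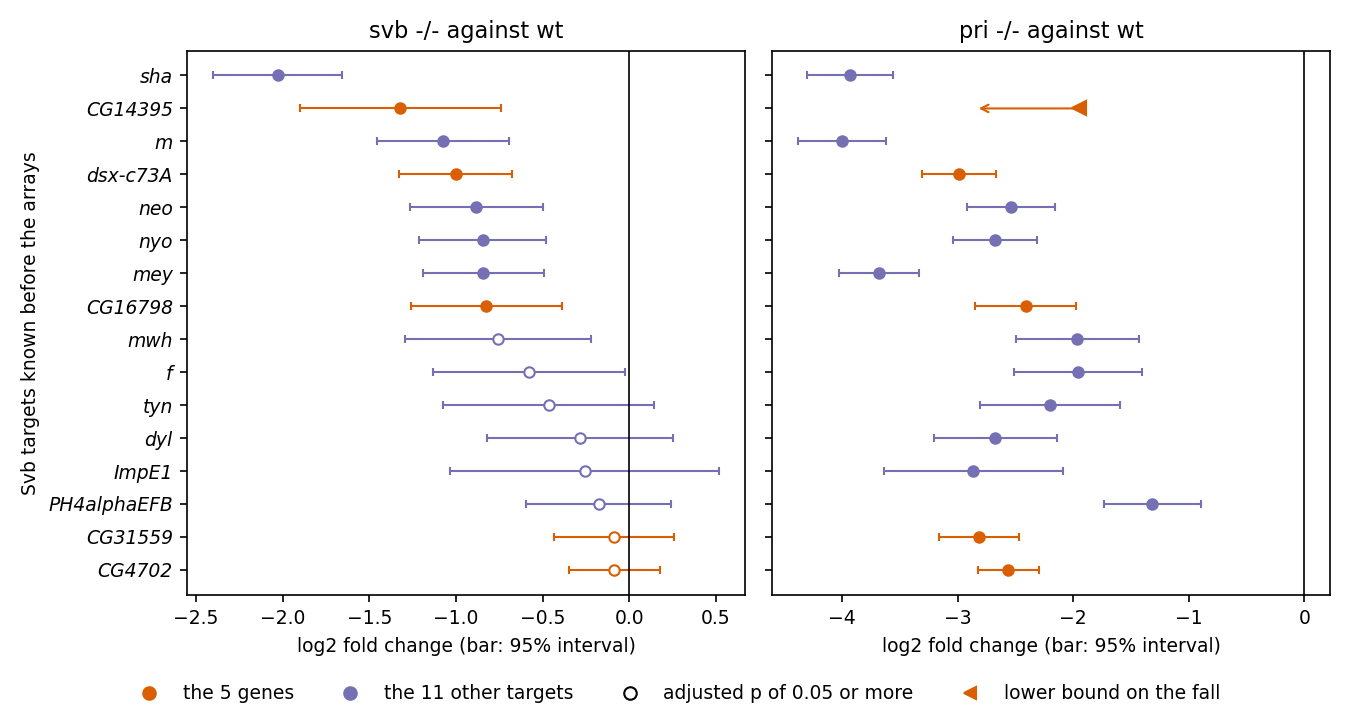
Log2 fold change in svb -/- (left) and pri -/- (right) against wt for 16 known Svb targets, ordered by the svb value, with 95% intervals from limma (5 arrays per genotype); open circles have an adjusted p of 0.05 or more, and the triangle with an arrow marks the bound for CG14395 in pri. Of the 5 genes (orange), CG14395 at -1.32 and dsx-c73A are near the strong end of the svb column, CG16798 is in its middle and CG31559 and CG4702 are at the weak end at -0.09, whereas in the pri column CG31559 at -2.82 and CG4702 at -2.56 lie among the other targets.

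The difference between genes was then tested directly. On each array the log2 ratio of a pair of genes was taken, which does not depend on how that array was scaled, and compared between genotypes by a two-sided exact permutation test over all splits of the 10 arrays, whose smallest p is 0.00794. Over the 3 comparisons 22 pairs were tested and p-values were adjusted over all 22. The pairs were tested with the separate results of each gene already known. They share genes with one another, so that their calls are not independent. How often pairs of other probe sets differ was not computed, so that the numbers of called pairs stand without a background.

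In svb mutants 7 of 10 pairs differed in their change. CG14395 fell by more than CG4702, with a difference of -1.23 in log2 fold change (95% interval -1.77 to -0.67, exact permutation test, adjusted p = 0.0249), and by more than CG31559, with a difference of -1.23 (-1.76 to -0.83, exact permutation test, adjusted p = 0.0249). The drop of dsx-c73A was larger than that of CG4702 by -0.92 (-1.41 to -0.45) and than that of CG31559 by -0.91 (-1.15 to -0.69), each with an adjusted p of 0.0249 in the exact permutation test. These 4 calls held in all 15 fits that left out 1 array. Their ratios did not overlap between the genotypes, so that leaving out 1 array could change a call only through the adjustment. CG14395 and dsx-c73A thus each stood apart from CG4702 and from CG31559.

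CG16798 was less securely placed. Its change differed from that of CG4702 by -0.74 (-1.26 to -0.25, exact permutation test, adjusted p = 0.0437), a call that was kept in 11 of 15 fits without 1 array and lost without wt replicate 2, 3 or 5 or svb replicate 2. From CG31559 it differed by -0.74 (-1.27 to -0.22, exact permutation test, adjusted p = 0.0349), kept in 12 of 15 fits and lost without wt replicate 2, 3 or 5. CG14395 fell by more than CG16798, with a difference of -0.50 (-0.996 to -0.056, exact permutation test, adjusted p = 0.0349), but this call was lost without any 1 of the 5 svb arrays, with adjusted p-values up to 0.0873.

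For the other 3 pairs no difference was found in svb mutants. CG4702 and CG31559 differed in their svb change by 0.00, with an interval from -0.34 to 0.41, on the log2 scale. CG14395 and dsx-c73A differed by -0.32 (interval -0.87 to 0.22, exact permutation test, adjusted p = 0.310), and dsx-c73A and CG16798 by -0.18 (-0.61 to 0.35, exact permutation test, adjusted p = 0.399).

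**Figure D3:**
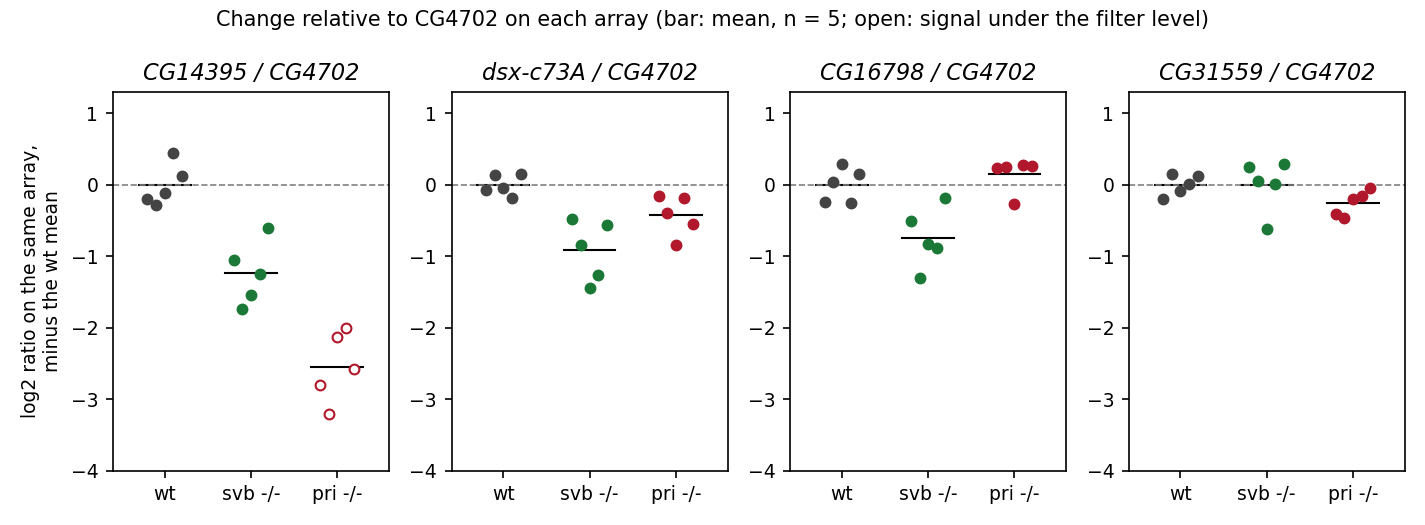
Log2 ratio of each gene to CG4702 on the same array, minus the wt mean of that ratio, for 15 arrays by genotype, with a bar for the mean of 5; open circles are CG14395 signals under 32. In svb mutants the ratio of dsx-c73A lies between -1.44 and -0.47, under all wt values, and that of CG31559 between -0.62 and 0.29, around them.

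For pri mutants 6 pairs could be tested, since CG14395 had a bound only. Against wt, 2 pairs differed. dsx-c73A fell by more than CG16798, by -0.58 (-0.83 to -0.32, exact permutation test, adjusted p = 0.0249), a call kept in all 15 fits without 1 array, the ratios again not overlapping. The drop of dsx-c73A exceeded that of CG4702 by -0.43 (-0.77 to -0.12, exact permutation test, adjusted p = 0.0437), but only 8 of 15 fits kept it, the call being lost without wt replicate 1, 2, 3 or 5, svb replicate 2 or pri replicate 3 or 5. An array of the third genotype can enter here through the adjustment over all 22 pairs. The 4 pairs that missed the threshold included CG4702 and CG31559, whose difference was 0.25 (0.00 to 0.51, exact permutation test, adjusted p = 0.0806). This pair was called without pri replicate 5 (exact permutation test, adjusted p = 0.0437), and CG16798 and CG31559 were called without pri replicate 3 (0.0437).

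Between svb and pri mutants 3 of 6 pairs differed. CG16798 fell by less than CG31559, by 1.14 (0.60 to 1.69, exact permutation test, adjusted p = 0.0249), in all 15 fits, the ratios again not overlapping. It also fell by less than CG4702, by 0.89 (0.35 to 1.35, exact permutation test, adjusted p = 0.0349), and dsx-c73A fell by less than CG31559, by 0.74 (0.22 to 1.20, exact permutation test, adjusted p = 0.0249). Each of these last calls was kept in 14 of 15 fits and lost without svb replicate 2 (adjusted p = 0.0524). Without svb replicate 3, the pair CG4702 and CG31559 (adjusted p = 0.0349) and the pair dsx-c73A and CG16798 (0.0218) were called as well.

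The same contrast can be put as the part of the pri change that was already present in svb mutants, as a ratio of both log2 fold changes and without a test, since they share the wt arrays. That share was 33.5% for dsx-c73A, with an SD of 9.03 over the svb arrays, and single svb arrays gave 21.3 to 45.1%. In CG16798 it was 34.2% with an SD of 18.0, its arrays ranging from 10.5 to 60.7%. CG14395 had a share of 25.9% with the measured pri signals and 67.5% with the bound in their place, so that its share is poorly known. The shares of CG4702 at 3.38% and of CG31559 at 3.14% were smaller than their SDs over svb arrays of 8.20 and 10.2.

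The 5 probe sets differed in their spread between samples, which holds both biological and technical variation. Within genotypes, the pooled SD of log2 signals was 0.181 for CG4702, at percentile 6.62 of the tested probe sets, 0.229 for dsx-c73A and 0.251 for CG31559. These lay under the median of all tested probe sets, which was 0.303. It was 0.339 for CG16798 and 0.438 for CG14395, above that median and including its pri signals under 32. For CG14395 the coefficient of variation of the signal was 17.2% in wt, 32.1% in svb and 38.6% in pri. No sample of any gene stood apart from the 4 others of its genotype by Dixon's criterion in the 15 groups examined.

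Deviations of single samples were in part shared. Svb replicate 5 had the highest svb signal for 4 of the 5 genes, CG4702 being the exception with its highest signal in replicate 4. Taken as deviations from the genotype means over 15 arrays, the signals of dsx-c73A and CG16798 had r = 0.54, whereas those of dsx-c73A and CG4702 had r = -0.10. The coefficients of CG14395, which reached r = 0.58 with CG31559, rest in part on its pri signals under 32. These coefficients describe arrays that share handling and scaling. Over all tested probe sets, svb replicate 4 had the most distant score of the svb arrays on the leading principal component (-86.9, the next being -45.5). Without it the calls of the 5 genes in svb mutants were the same.

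Each gene was set beside the other named genes of the study's table to find the 3 with the most similar profile over the 15 arrays. The nearest to dsx-c73A was nyo (r = 0.992), which encodes a ZP domain protein, then CG13698 (r = 0.985) and tpr (r = 0.981). For CG16798 they were CG13698 (r = 0.983), the ZP gene neo (r = 0.978) and tpr (r = 0.974). CG14395, with its pri signals under 32 taken as measured, was closest to m (r = 0.981) and mey (r = 0.980), both ZP genes, and to CG9514 (r = 0.978). All genotypes enter these coefficients, which are therefore set mainly by the distance between pri and the other arrays.

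The profiles nearest to CG4702 were those of CG14756 (r = 0.988), wus (r = 0.986), which encodes a membrane protein with a DnaJ domain, and CG31559 (r = 0.985). CG31559 itself was closest to Mvd (r = 0.987), an enzyme of the mevalonate pathway, CG1632 (r = 0.986) and Pdss2 (r = 0.985), an enzyme that makes the side chain of ubiquinone. The table was selected on the same arrays, so that high coefficients are found in it throughout, and no test was made.

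With the genotype means removed, dsx-c73A again varied most closely with nyo (r = 0.82), then with the sulfotransferase gene St4 (r = 0.80) and CG42331 (r = 0.76). CG16798 varied with CG13698 (r = 0.79), mwh (r = 0.78) and tw (r = 0.73), and CG31559 with CG1632 (r = 0.81), rt (r = 0.80) and Pdss2 (r = 0.80). rt and tw encode protein O-mannosyltransferases. CG4702 followed CG7840 (r = 0.86), CG11127 (r = 0.80) and the lipase gene Lip4 (r = 0.71). CG14395 had its highest coefficients with CG9514 (r = 0.62), CG31559 (r = 0.58) and tpr (r = 0.58), to which its pri signals under 32 contribute. The table holds few of the probe sets on the array, and of the 8631 tested, 21 had a higher coefficient with dsx-c73A than nyo had, 91 a higher one with CG16798 than CG13698 and 12 a higher one with CG31559 than CG1632. For CG14395 and CG9514 this number was 12 and for CG4702 and CG7840 it was 7.

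**Figure D4:**
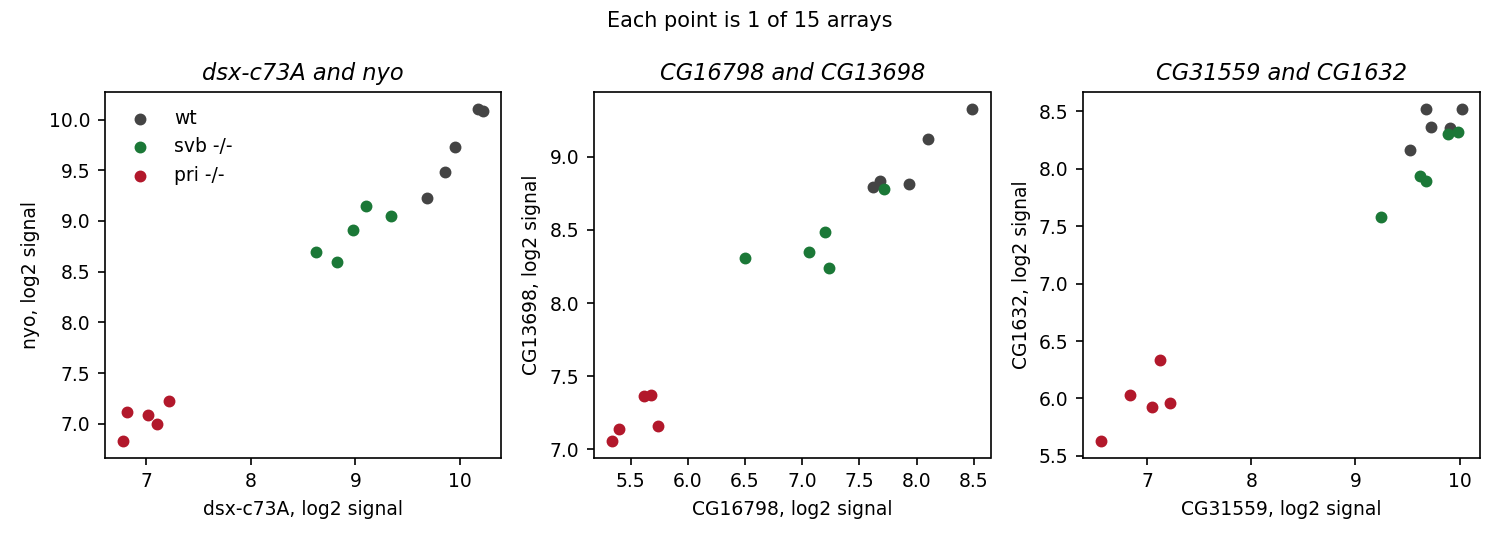
Log2 signals of dsx-c73A and nyo, CG16798 and CG13698, and CG31559 and CG1632, each gene with 1 that ranked among its 3 nearest in the study's table, both over all arrays and within genotypes; each point is 1 of 15 arrays, coloured by genotype. The pri arrays lie apart at the lower left in each panel, and svb arrays lie between wt and pri for dsx-c73A and beside wt for CG31559.

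None of the 5 genes lies beside another gene of the table. In the RefSeq gene order (Release 6), dsx-c73A lies between CG33158 and aos, CG16798 between Ugt37A1 and CG10947, CG4702 between dpr17 and dpr15 and CG14395 between CG6225 and Gnmt. CG31559 lies between Vha14-2 and CG1077. None of the 2 nearest protein-coding genes on either side of any of the 5 was in the study's table.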

How the data were processed

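The deposited intensities are linear MAS 5.0 signals, which the authors computed in Affymetrix Expression Console 1.1 and scaled to a trimmed mean (2% left out on each side) of 100 per array. This assumes equal total signal in all genotypes, and the algorithm is unstable for dim probe sets. Detection calls were not used here, and no scan batch is named. Depth does not apply to arrays, and their number limits the precision.

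Groups and replicate numbers come from the sample titles. The genes were located through the authors' table of 149 selected rows, whose values match 1 probe set in 145 rows and none in 4 (relative tolerance 1e-05), and named through RefSeq locus tags, CG32159 being dsx-c73A. By the AFFX prefix of their identifiers, 183 of 18952 probe sets were taken as array controls and left out.

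Signals were put on the log2 scale with no offset. Tests were limited to the 8631 probe sets whose brightest genotype had a mean of at least 5 (32 as a signal), and 10138 dimmer ones were dropped. The 3 genotypes were fitted together over 15 arrays with limma 3.58.1 (R 4.3.3; functions lmFit, contrasts.fit and eBayes, trend on), adjusted by Benjamini and Hochberg within each contrast, with a threshold of 0.05. Where a group mean was under a signal of 32, a bound against that level is given, and it stands in for background. On simulated data with the same 8631 probe sets, the fit of svb against wt recovered 71 of 100 changes of 2-fold and 97 of 100 changes of 4-fold. It made 10 false calls among the probe sets left unchanged. The simulated noise was independent between probe sets and arrays, so that shared array effects were not covered.

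Pairs of genes were compared by exact permutation tests of within-array log2 ratios, with intervals from inverting the test. Same-numbered arrays of different genotypes did not deviate together (r from -0.61 to 0.37, 7 of 15 pairs over 0.1), so that no pairing was used. The text names the 5 genes, other known Svb targets where an order turns on them, and for each gene the 3 most similar named genes by either measure. The 5 genes and the lists were chosen with earlier results of these data known. Sequences, coordinates and cell type markers were not analysed here. Alternatives were median centring, quantile normalisation, another filter (6.5) or none, an offset of 16, no trend in eBayes, array weights, a replicate block, the compared groups alone, a permutation test per gene and leaving out each array.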

Additional observations from a re-analysis of the deposited data

How the results depend on the processing

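The calls of CG14395 and dsx-c73A in svb mutants, and of all 5 genes in pri against wt and against svb, kept their direction and their side of the threshold under all 25 alternatives. Where only the filter, the error model or the test differed, or an array of the third genotype was left out, the direction could not change. The permutation test per gene was unadjusted. CG16798 lost its svb call under 5 of the 25 alternatives, named with its values above. After median centring the log2 fold change in svb became 0.018 for CG4702 and 0.016 for CG31559. Without 1 array it was -0.16 to 0.021 for CG31559, above 0 without svb -/- replicate 3, and -0.14 to -0.01 for CG4702. Median centring put the median of all tested probe sets at 0.10 in svb, -0.24 in pri and -0.34 from svb to pri. Relative to that median in svb, CG16798 stayed at -0.82 and both CG4702 and CG31559 at -0.08. Median centring changed the number of calls as well. It gave 201 lower and 174 higher calls in svb against 345 and 174 in the chosen fit, 2328 and 1047 in pri against 1990 and 1576, and 3053 and 1149 from svb to pri against 2128 and 1855. A filter at 6.5 gave 218 and 103 calls in svb, but among only 6128 tested probe sets. Array weights gave 569 and 348 among 8631, with a weight of 0.214 for svb replicate 4.

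The number of the 5 genes lower in svb was 2 to 3 when 1 array was left out. Of the gene pairs, 5 to 7 of 10 differed in svb, 1 to 2 of 6 in pri and 1 to 5 of 6 from svb to pri without 1 array, and an offset of 16 gave 6, 3 and 4. The 1 was reached in pri without wt replicate 1, 2, 3 or 5 or svb replicate 2, and from svb to pri without svb replicate 2; the 5 without svb replicate 3. An offset of 16 changed the share of the pri change present in svb to 38.4% for CG14395. With the replicate number as a block, all calls of the 5 genes were the same (273 lower and 138 higher in svb over all probe sets), and the numbers do not pair the samples. The unscaled scanner data were not used here, so that the dim signals of CG14395 in pri could not be set against a measured background.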
